A study of Mus musculus with 7 samples.

Results

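Liver cells take up glucose, burn it by glycolysis, make it anew by gluconeogenesis and store it as glycogen, and the direction of this traffic is set in large part by the amounts of a few transport, kinase and phosphatase enzymes. The same hexose phosphates feed the pentose phosphate pathway, and pyruvate either enters the mitochondria through the pyruvate dehydrogenase complex or returns towards glucose through pyruvate carboxylase. In hepatocytes, transcription of several of these genes is known to respond to glucose, through the factor ChREBP, and to insulin and glucagon. A set of 35 genes of these pathways was taken by symbol from a table of 12151 mouse genes, and each of the 35 was found in it. The set was sorted by role into 3 genes of hexose uptake and phosphorylation control, 11 of glycolysis, 6 of gluconeogenesis, 10 of glycogen metabolism and 5 of the pyruvate dehydrogenase complex.

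RNA of isolated mouse hepatocytes was sequenced in 7 libraries, 3 of wild type (WT, with the treatment label "non") and 4 labelled ALAS1/2-KO (treatment label "tamoxifen"). ALAS1 and ALAS2 are the enzymes of the first step of heme synthesis. In the ALAS1/2-KO group, exons 4 to 5 of Alas1 can be deleted by an inducible Cre recombinase, and Alas2 was lowered by injected siRNA coupled to GalNAc, a sugar that carries it into hepatocytes. The Cre driver, the strain, age and sex of the mice, the times of treatment, and whether WT mice received siRNA are details that the sources used here do not give. Genotype, tamoxifen and siRNA therefore cannot be told apart in any difference between these groups. The labels do not say that replicates came from separate mice, so each p-value is set against a spread between libraries that could be technical only.

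Values are CPM, read counts scaled to library size by the authors, taken off the deposited log2 scale. The libraries held 22916097 to 34048680 reads in the listed genes, and the least covered of the 35 genes, Pck2, had at least 73 reads in each library. Alas2 lay at 6.65 to 16.9 CPM in WT and 0.198 to 0.80 CPM in ALAS1/2-KO (adjusted p = 0.0027, limma), whereas Alas1 lay at 83.5 to 280 CPM and 287 to 361 CPM (adjusted p = 0.277, limma). The Alas1 value counts reads over the whole gene and so does not check the deletion of exons 4 to 5; ALAS1/2-KO below names the group by its label. As to the hepatocyte label, 12 of 12 hepatocyte markers were listed, and their summed level was 120748 to 128824 CPM in WT and 79011 to 86088 CPM in ALAS1/2-KO. Mitochondrial genes took 37.9% ± 5.68 (SD, n = 3) of listed reads in WT and 23.8% ± 4.72 (SD, n = 4) in ALAS1/2-KO. With 3 libraries against 4, the exact two-sided permutation test cannot give a p below 0.0286, which both of these values reached (0.0643 after adjustment over 9 library-level values). Whether either shift has a part in the differences below was not tested.

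Of the 35 genes, 11 rose in ALAS1/2-KO and 0 fell at an adjusted p under 0.05 (limma, Benjamini-Hochberg over 12105 genes). That is 31.4% of the set, where 2.91% of all tested genes rose, 2.19% fell and 5.1% changed in either direction. The set was chosen with earlier results of these data known, so its share is a description and not an independent test. The rises were Slc2a2, Gckr, Khk, Gpi1, Gapdh, Pklr, Pcx, Gys2, Pygl, Stbd1 and Pdk1. In 12 genes the lowest ALAS1/2-KO library exceeded the highest WT library, against 11.3% of all genes, and in 1 gene, Ppp1r3c, the order was the opposite, against 11.4% of all genes. Beside the count of 0 that fell, 1 gene, Ppp1r3c, was lower at an unadjusted p under 0.05, and limma voom on recovered reads also called 0 lower. The median log2 difference was 0.16 over the 35 genes and -0.02 over all genes, with 25 of the 35 positive and 10 negative. Under the authors' scaling the 35 genes summed to 6965, 5632 and 4549 CPM in WT and to 7682, 6395, 7096 and 7090.4 CPM in ALAS1/2-KO. WT replicate 1 lay above ALAS1/2-KO replicate 2 there, so that the groups overlapped. As a share of listed reads the groups did not overlap, at 0.451% to 0.582% in WT and 0.694% to 0.91% in ALAS1/2-KO.

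Scaling bears on these counts. When values were rescaled to the listed reads, the median over all genes moved from -0.02 to 0.32 and the rises among the 35 went from 11 to 21, while 20.9% of all genes rose in place of 2.91%. Higher genes then made up 92.6% of all calls in place of 57.1%. A scaling that left out mitochondrial genes and the 20 most abundant genes gave 10 rises among the 35, with 1.97% of all genes rising and 42.3% of calls higher. The median of the set stood 0.18 above that of all genes under each of these 3 scalings and 0.09 above it with quantile normalization. With 1 library left out this gap was 0.10 (without WT replicate 3) to 0.30 (without WT replicate 1).

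**Figure D1:**
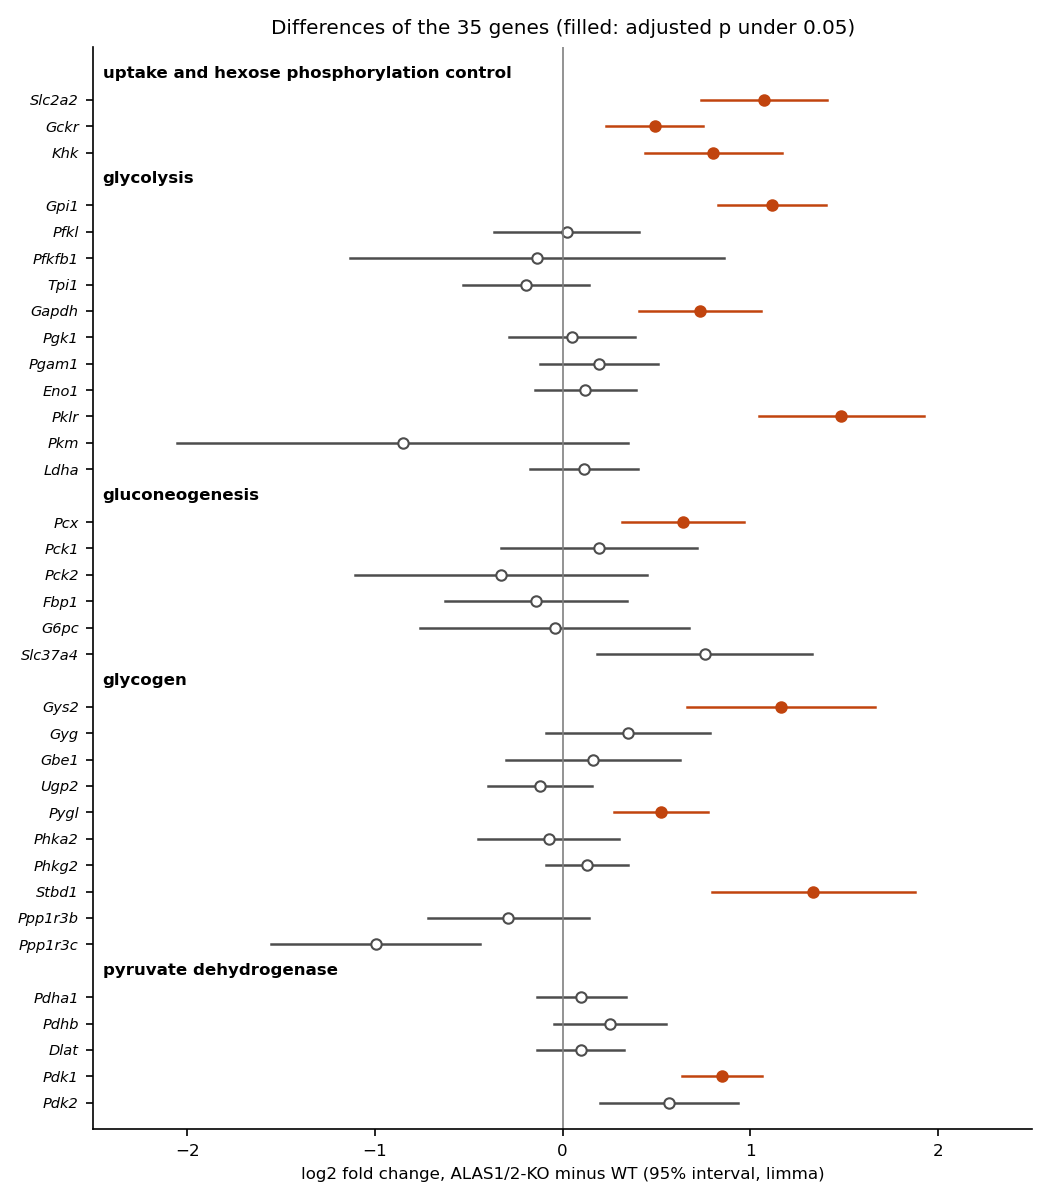
Log2 difference between ALAS1/2-KO and WT for each of the 35 genes, grouped by role, with 95% intervals from limma across 3 WT and 4 ALAS1/2-KO libraries; filled points have an adjusted p under 0.05. The 11 filled points lie between 0.49 (Gckr) and 1.48 (Pklr), and the lowest point is Ppp1r3c at -0.996.

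Hexose uptake and its control was the role group in which each gene rose (3 of 3, median log2 difference 0.80). Slc2a2 (chr3:28697903-28731359, mm10) encodes GLUT2, the glucose transporter of the hepatocyte membrane. It stood at 212, 195 and 140.5 CPM in WT replicates 1 to 3 and at 367, 358, 400.4 and 388 CPM in ALAS1/2-KO replicates 1 to 4. The lowest ALAS1/2-KO library thus lay well above the highest WT library, and the difference was 1.07 on the log2 scale (SE 0.15, adjusted p = 0.00798, limma).

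Khk (chr5:30921431-30931248) encodes ketohexokinase, which phosphorylates fructose. Its level was 249, 208 and 176 CPM in WT and 328, 313, 404 and 424 CPM in ALAS1/2-KO. The groups did not overlap, with a log2 difference of 0.80 (SE 0.16, adjusted p = 0.0307, limma). Gckr (chr5:31297443-31327314) encodes a regulatory protein of hexose phosphorylation. It was at 175, 168 and 181 CPM in WT and 245, 282, 214 and 245 CPM in ALAS1/2-KO. The WT libraries were close together and the ALAS1/2-KO libraries all above them, with a log2 difference of 0.49 (SE 0.11, adjusted p = 0.0452, limma). Khk no longer passed when WT replicate 2 (adjusted p = 0.138, limma), WT replicate 3 (0.0766), ALAS1/2-KO replicate 3 (0.0637) or ALAS1/2-KO replicate 4 (0.0728) was left out. Gckr no longer passed whichever of the 7 libraries was left out (0.0512 to 0.192).

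In glycolysis 3 of 11 genes rose: Gpi1 and Gapdh within the pathway, and Pklr at its end (group median 0.11). Pklr (chr3:89136142-89146784) encodes the pyruvate kinase of liver and red cells and had the highest fold change of the set. It stood at 133, 124 and 103 CPM in WT and at 453, 251, 323 and 341 CPM in ALAS1/2-KO, where replicate 1 was highest and replicate 2 lowest. The groups were far apart, with a 2.8-fold difference (log2 1.48, SE 0.19, adjusted p = 0.00642, limma). Red cells also carry Pklr RNA while immature, and the summed level of 4 listed red cell markers (globin genes) was 11.3 to 41.3 CPM in WT and 2.75 to 7.39 CPM in ALAS1/2-KO. The part of red cell RNA in the Pklr values was not tested.

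The liver form of Pklr is made from the downstream of the gene's start sites, and its promoter is a textbook target of ChREBP, which binds a pair of E-box-like sites. For this reason the sequence before that start is shown. It covers chr3:89136373-89136571 on the plus strand (GRCm38, RefSeq), in the intron after the exon that ends at 89136282 and ahead of the next annotated exon, with the match to the pattern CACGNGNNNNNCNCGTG in capitals:
Pklr upstream: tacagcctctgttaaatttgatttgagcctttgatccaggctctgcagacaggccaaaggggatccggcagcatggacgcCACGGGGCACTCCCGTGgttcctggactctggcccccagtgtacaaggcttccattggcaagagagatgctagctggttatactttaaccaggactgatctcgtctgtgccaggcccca
The match lies 170 to 154 bases before the RefSeq start. The pattern was searched on both strands in the 250 bases before each RefSeq start, and Pklr was the only 1 of 33 genes of the set with a promoter in that table to hold it, against 12 of 27025 genes (0.0444%). This promoter is a known case of such paired sites, so its match could be foreseen and the rarity of the pattern adds nothing to it. A match of letters is a description and not a measured binding site.

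Gpi1 (chr7:34201330-34230336) encodes the isomerase that turns glucose 6-phosphate into fructose 6-phosphate. It was at 113, 108 and 98.6 CPM in WT and at 223, 193, 255 and 257 CPM in ALAS1/2-KO. No library of either group came near the other group, and the log2 difference was 1.11 (SE 0.13, adjusted p = 0.00385, limma). Gapdh (chr6:125161715-125166467) encodes glyceraldehyde 3-phosphate dehydrogenase and is often used as a reference gene. It was at 44.7, 52.0 and 39.2 CPM in WT and at 91.8, 70.4, 72.2 and 66.7 CPM in ALAS1/2-KO. The groups did not overlap and differed by 0.73 on the log2 scale (SE 0.14, adjusted p = 0.0299, limma). Of the 7 fits that each left out 1 library, Gapdh passed in the one that left out ALAS1/2-KO replicate 1 (adjusted p = 0.0237, limma). It missed the threshold with WT replicates 1, 2 and 3 left out in turn (0.0923, 0.0753 and 0.0749) and with ALAS1/2-KO replicates 2, 3 and 4 left out in turn (0.0518, 0.0553 and 0.0531).

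The other 8 glycolysis genes did not pass. Pfkl, the liver phosphofructokinase, was at 17.3 CPM ± 3.72 (SD, n = 3) in WT and 17.5 ± 2.73 (SD, n = 4) in ALAS1/2-KO, with a 95% interval of the log2 difference from -0.36 to 0.41. Pfkfb1, which makes and removes the phosphofructokinase activator fructose 2,6-bisphosphate, ranged from 8.43 to 23.2 CPM in WT and from 8.09 to 20.1 CPM in ALAS1/2-KO. Of the enzymes of the later steps, Tpi1 had a log2 difference of -0.20, Pgk1 0.05, Pgam1 0.19, Eno1 0.12 and Ldha, lactate dehydrogenase A, 0.11. The 95% intervals of these 5 lay within -0.53 to 0.51.

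Pkm, the pyruvate kinase of most other tissues, was at 30.3, 29.5 and 32.3 CPM in WT and at 6.05, 17.9, 30.9 and 24.7 CPM in ALAS1/2-KO. ALAS1/2-KO replicate 1 was far below the others, and the groups overlapped (log2 difference -0.85, SE 0.51, adjusted p = 0.358, limma). Within each group, markers of other liver cells had the same order of libraries as Pkm. The summed level of 29 markers of Kupffer, endothelial and stellate cells was 1438 to 1985 CPM in WT and 362, 977, 2063 and 1808 CPM in ALAS1/2-KO replicates 1 to 4. Each of the 29 was lowest in ALAS1/2-KO replicate 1, and none was at 0 reads in any library. In bulk RNA, fewer cells of a type and less RNA per cell cannot be told apart. Without ALAS1/2-KO replicate 1 the Pkm difference was -0.36, and with the marker level as a covariate, an alternative chosen after seeing the data, it was -0.25.

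With that covariate the same 11 genes of the set rose, while the share of all genes that rose went from 2.91% to 4.66%. Without ALAS1/2-KO replicates 1 and 2 together, likewise chosen after seeing the data, 8 of the 11 rose, and 4.67% of all genes. Outside the set, the hexokinase genes Hk1 and Hk3 and the brain-type phosphorylase gene Pygb were also lowest in ALAS1/2-KO replicate 1, at 0.635, 1.97 and 1.33 CPM. That replicate was the lowest ALAS1/2-KO library in 33.5% of all genes. In ALAS1/2-KO replicates 2 to 4, Hk1 was at 2.18 to 3.97 CPM, below WT (5.00 to 5.65 CPM). There Hk3 (7.08 to 14.8 CPM, WT 8.34 to 10.6 CPM) and Pygb (3.75 to 7.27 CPM, WT 3.97 to 5.97 CPM) reached both below and above WT.

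**Figure D2:**
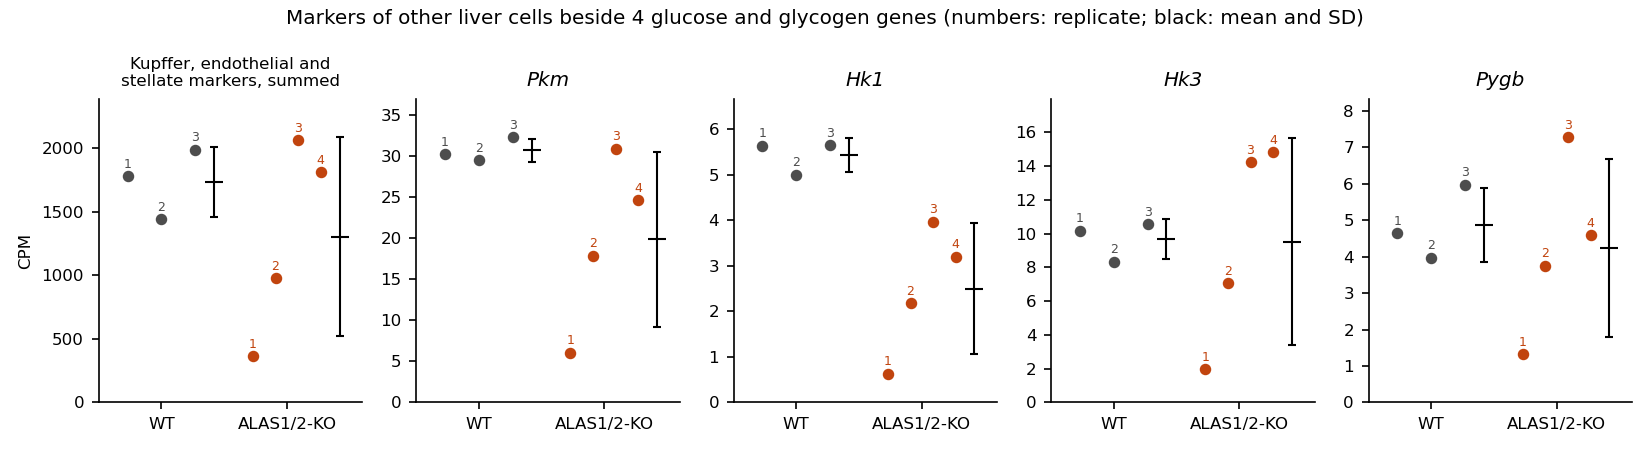
CPM in each library of 29 summed markers of Kupffer, endothelial and stellate cells, of Pkm, and of 3 genes outside the set (Hk1, Hk3 and Pygb); numbers are replicates, and black bars give mean and SD. ALAS1/2-KO replicate 1 is the lowest library in each panel, at 362 CPM of the markers and 6.05 CPM of Pkm.

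In gluconeogenesis 1 of 6 genes rose, Pcx (group median 0.07). Pcx (chr19:4510472-4621752) encodes pyruvate carboxylase, which makes oxaloacetate from pyruvate in the mitochondria and is activated by acetyl-CoA. It was at 190.5, 139 and 139 CPM in WT and at 275, 239, 236 and 218 CPM in ALAS1/2-KO. The highest WT library lay below the lowest ALAS1/2-KO library, with a log2 difference of 0.64 (SE 0.14, adjusted p = 0.0411, limma). With 1 library left out at a time, Pcx passed when that was WT replicate 1 (adjusted p = 0.0318, limma). It did not pass when WT replicate 2 (0.192), WT replicate 3 (0.104) or any ALAS1/2-KO library was removed (0.0529, 0.0773, 0.0757 and 0.0715 for replicates 1 to 4).

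The other genes of the gluconeogenesis group did not pass. Pck1, the cytosolic phosphoenolpyruvate carboxykinase, was the most abundant gene of the set per kb of exon, at 533 CPM per kb in WT and 586 CPM per kb in ALAS1/2-KO. Its level was 2546, 1702 and 1237 CPM in WT and 2294, 1724, 2029 and 1991 CPM in ALAS1/2-KO, so that the ALAS1/2-KO libraries lay within the WT range (log2 difference 0.19, 95% interval -0.33 to 0.71). G6pc, the catalytic subunit of glucose 6-phosphatase, was at 407, 350.3 and 281 CPM in WT and at 459, 198, 292 and 457 CPM in ALAS1/2-KO, where 2 libraries lay above the WT range, 1 within it and 1 below it. Its interval, -0.76 to 0.67, leaves room for a change of either sign. Fbp1, fructose 1,6-bisphosphatase, had a log2 difference of -0.14 (95% interval -0.62 to 0.34), and Pck2, the mitochondrial carboxykinase, was low in both groups, at 4.47 ± 1.37 (SD, n = 3) and 3.67 CPM ± 1.48 (SD, n = 4). Slc37a4, which carries glucose 6-phosphate to glucose 6-phosphatase in the endoplasmic reticulum, was at 161, 116 and 73.6 CPM in WT and at 181, 158, 199 and 219 CPM in ALAS1/2-KO. WT replicate 1 overlapped the ALAS1/2-KO libraries, and the log2 difference of 0.76 did not pass (SE 0.25, adjusted p = 0.123, limma).

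**Figure D3:**
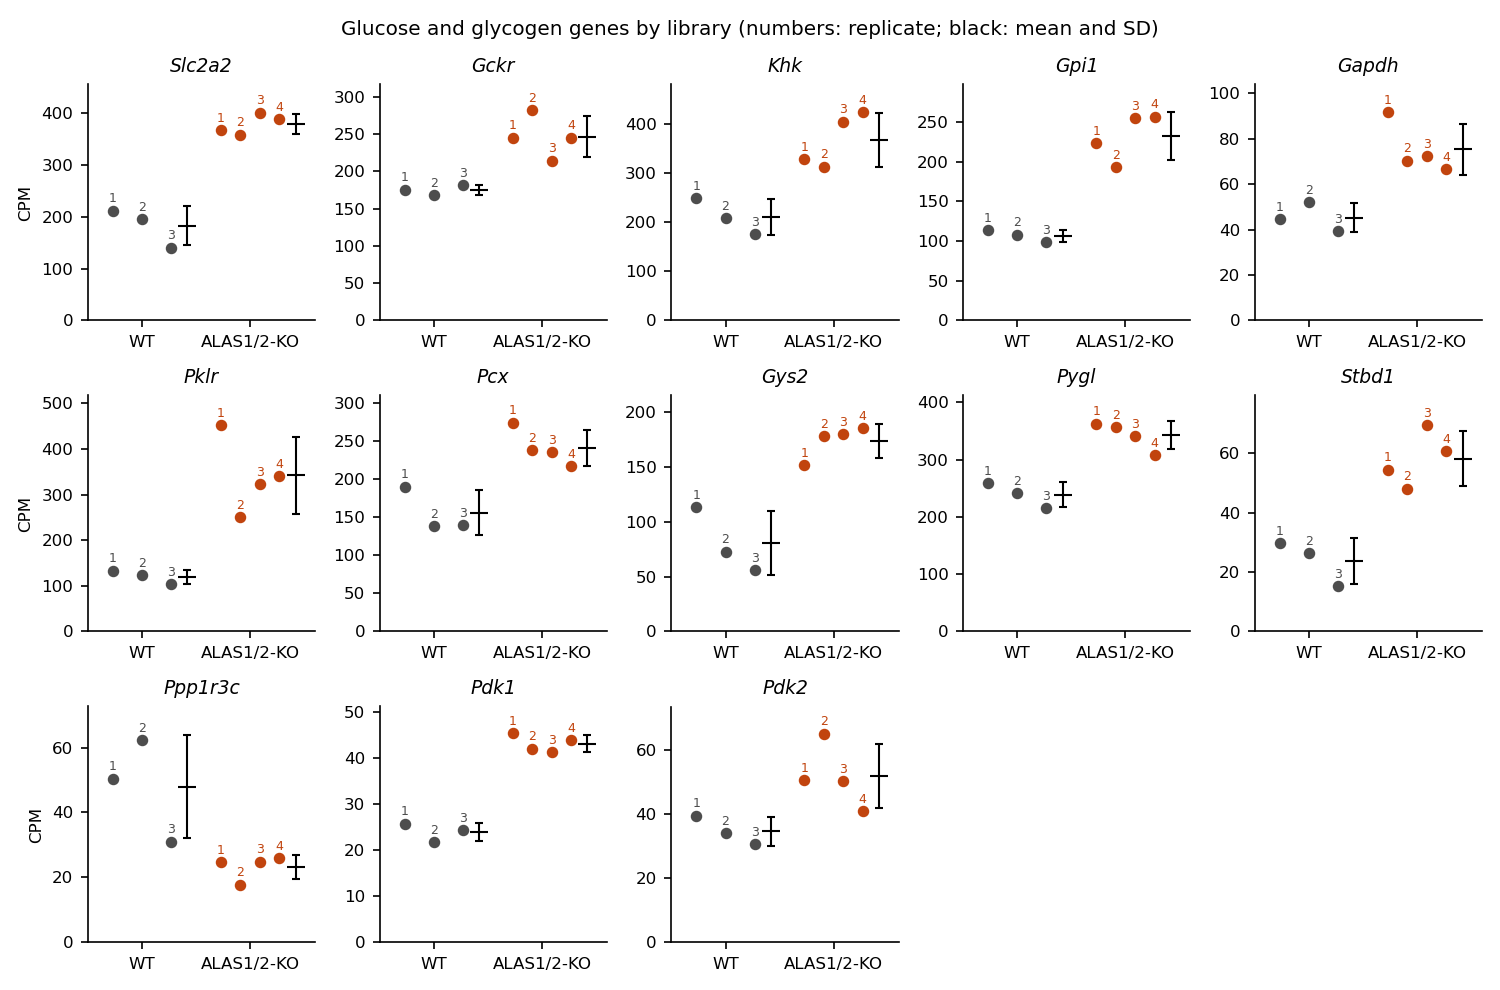
CPM in each library of the 11 genes that rose and of Ppp1r3c and Pdk2, whose groups did not overlap but which did not pass after adjustment; numbers are replicates, and black bars give mean and SD. In the 11 genes and Pdk2 each ALAS1/2-KO library lies above each WT library, and in Ppp1r3c each lies below.

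Glycogen metabolism had 3 of 10 genes that rose (group median 0.14), and both the synthase and the phosphorylase of liver were among them. Gys2 (chr6:142422613-142473109) encodes liver glycogen synthase. It was at 113, 72.8 and 55.7 CPM in WT and at 151, 178, 179.6 and 185 CPM in ALAS1/2-KO. The WT libraries differed by more among themselves than the ALAS1/2-KO libraries did, and the groups did not overlap (log2 difference 1.16, SE 0.22, adjusted p = 0.0283, limma).

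Pygl (chr12:70190811-70231488) encodes liver glycogen phosphorylase, which releases glucose 1-phosphate. Its level was 259, 241 and 215 CPM in WT and 363, 357, 342 and 308 CPM in ALAS1/2-KO, again without overlap (log2 difference 0.52, SE 0.11, adjusted p = 0.0351, limma). Stbd1 (chr5:92603041-92606579) encodes a starch-binding protein that ties glycogen to membranes and to its breakdown in lysosomes. It was at 29.6, 26.4 and 15.1 CPM in WT and at 54.4, 48.1, 69.5 and 60.8 CPM in ALAS1/2-KO, with the second highest fold change of the set (2.52-fold, log2 1.34, SE 0.24, adjusted p = 0.0247, limma). The Stbd1 call did not hold with WT replicate 2 (adjusted p = 0.0875, limma) or ALAS1/2-KO replicate 4 (0.0649) removed. The Gys2 call did not hold with WT replicate 2 (0.132) or 3 (0.053) removed, nor with ALAS1/2-KO replicate 2 (0.0622), 3 (0.0579) or 4 (0.0715) removed. Pygl passed with ALAS1/2-KO replicate 1 removed (adjusted p = 0.0497, limma) and missed the threshold with each other library removed (0.0643, 0.15 and 0.0809 for WT replicates 1 to 3, 0.071, 0.074 and 0.0556 for ALAS1/2-KO replicates 2 to 4).

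Ppp1r3c (chr19:36731731-36736653) encodes a subunit that brings protein phosphatase 1 to glycogen, where it activates the synthase. It was at 50.4, 62.4 and 31.0 CPM in WT and at 24.6, 17.8, 24.9 and 25.9 CPM in ALAS1/2-KO. Each ALAS1/2-KO library lay below each WT library, with WT replicate 3 close to them, and the log2 difference of -0.996 did not pass after adjustment (SE 0.24, unadjusted p = 0.00329, adjusted p = 0.0569, limma). It passed without WT replicate 3 (log2 difference -1.28, adjusted p = 0.0224, limma). Ppp1r3b, the homologous subunit that is abundant in liver, was at 111, 160.2 and 125 CPM in WT and at 128, 79.0, 114 and 113 CPM in ALAS1/2-KO, with overlap (log2 difference -0.29, adjusted p = 0.39, limma).

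Of the remaining glycogen genes none passed. Ugp2, which makes UDP-glucose, had a log2 difference of -0.12, Gbe1, the branching enzyme, 0.16, and Gyg, the primer protein glycogenin, 0.35. Phka2 and Phkg2, subunits of the phosphorylase kinase of liver, had differences of -0.07 and 0.13.

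In the pyruvate dehydrogenase group 1 of 5 genes rose, a kinase that switches the complex off (group median 0.25). Pdk1 (chr2:71873224-71903858) was at 25.8, 21.8 and 24.4 CPM in WT and at 45.4, 42.0, 41.3 and 43.9 CPM in ALAS1/2-KO. Both groups were tight and far apart, and Pdk1 had the smallest p of the set (log2 difference 0.85, SE 0.09, adjusted p = 0.00356, limma). Pdk2 (chr11:95026258-95041354), a second kinase of the complex, was at 39.6, 34.1 and 30.6 CPM in WT and at 50.6, 65.2, 50.5 and 41.1 CPM in ALAS1/2-KO. Its groups did not overlap, though WT replicate 1 and ALAS1/2-KO replicate 4 were close, and the log2 difference of 0.56 did not pass after adjustment (SE 0.16, unadjusted p = 0.00733, adjusted p = 0.0867, limma). The subunits of the complex itself had small differences: Pdha1 0.10, Pdhb 0.25 and Dlat 0.10 on the log2 scale, with 95% intervals that reached at most 0.55.

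**Figure D4:**
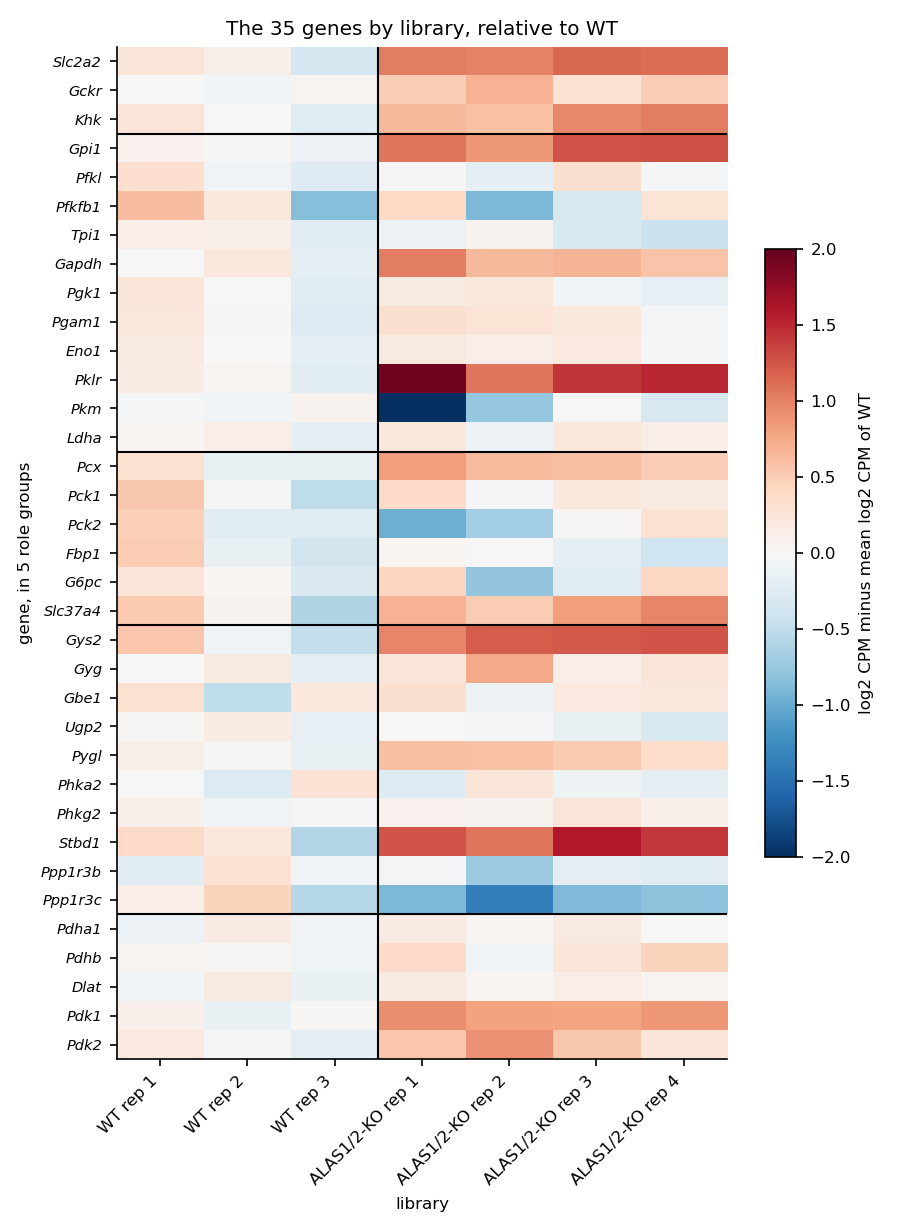
Log2 CPM of the 35 genes in each of the 7 libraries, relative to the mean log2 CPM of WT, in the order of the 5 role groups; red is higher and blue lower. The 3 uptake genes at the top are red in each ALAS1/2-KO library, and the deepest blue cell is Pkm in ALAS1/2-KO replicate 1.

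The libraries of a group also differed among themselves in the level of the set. WT replicate 1 was the highest WT library in 24 of the 35 genes (68.6%, against 33.5% of all genes), and WT replicate 3 was the lowest in 26 (74.3%, against 36.3%). Within ALAS1/2-KO, replicate 1 was highest in 15 genes (42.9%, against 25.9%) and replicate 2 lowest in 17 (48.6%, against 21.8%). Pck1 showed the WT order plainly, with 2546 CPM in replicate 1 and 1237 CPM in replicate 3.

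Ratios within a library, taken per kb of exon, put pairs of genes with opposed or parallel roles side by side, and are given as description with no test. The ratio of Pklr to Pkm was 4.94 to 6.79 in WT and 16.2 to 116 in ALAS1/2-KO. Its top value was that of ALAS1/2-KO replicate 1, where Pkm and the markers of other liver cells were lowest. Pklr to Pck1, the last step of glycolysis against an early step of the opposite path, was 0.0554 to 0.0884 in WT and 0.154 to 0.209 in ALAS1/2-KO. Slc2a2 to G6pc was 0.210 to 0.233 in WT and 0.335 to 0.759 in ALAS1/2-KO.

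These 3 ratios did not overlap between the groups. Ppp1r3b to Ppp1r3c, the pair of phosphatase subunits, was also without overlap, at 0.967 to 1.77 in WT and 1.91 to 2.28 in ALAS1/2-KO. Each ratio without overlap holds Pklr, Slc2a2 or Ppp1r3c, whose own groups did not overlap, so it is not independent of those genes. The share of all gene pairs without overlap was not computed. The ratios of Gys2 to Pygl (0.671 to 1.13 in WT, 1.08 to 1.56 in ALAS1/2-KO), Pdk2 to Pdk1, Pck1 to Pck2 and Pfkl to Fbp1 overlapped.

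**Figure D5:**
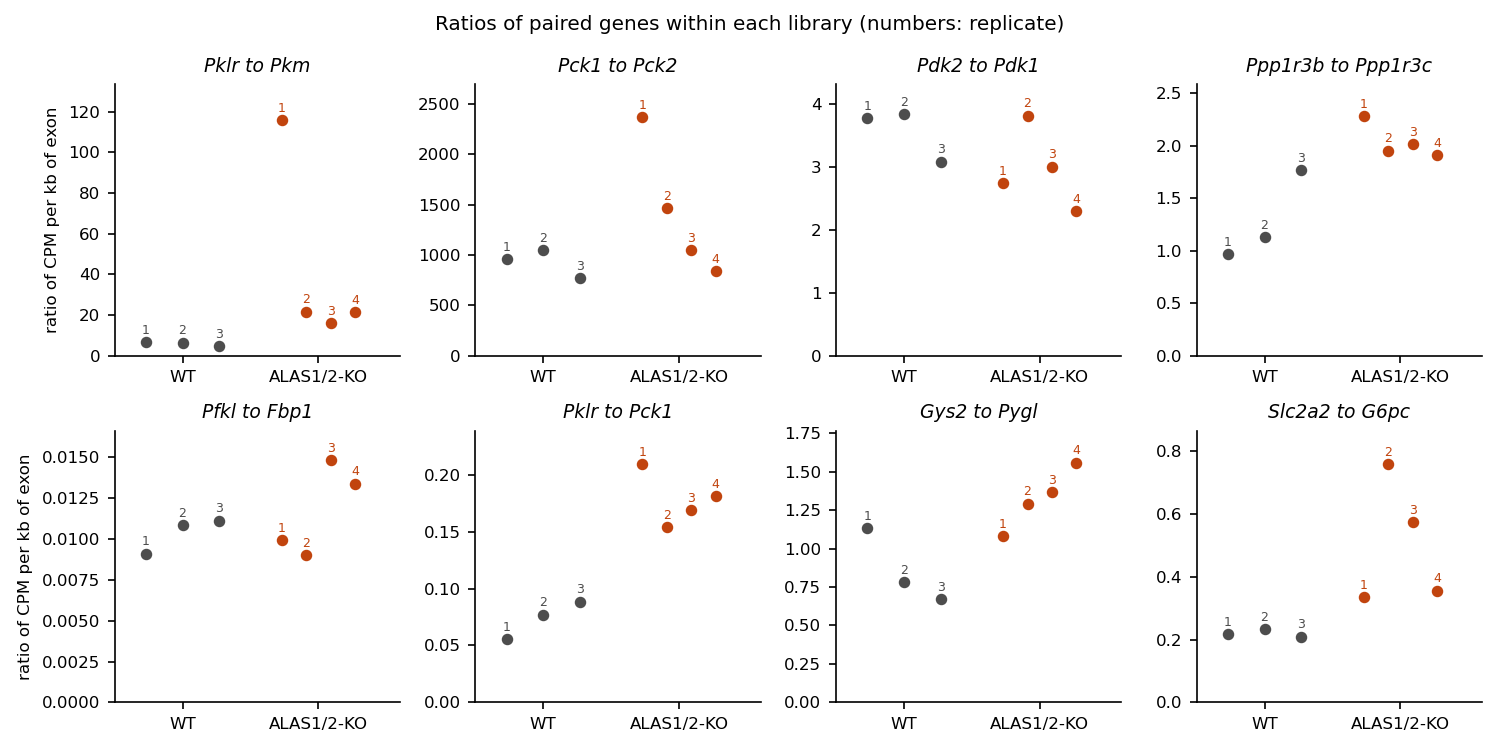
Ratios of CPM per kb of exon between pairs of genes in each library, with numbers for replicates. The 4 ratios without overlap are Pklr to Pkm, Ppp1r3b to Ppp1r3c, Pklr to Pck1 and Slc2a2 to G6pc, each higher in ALAS1/2-KO.

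The rest of these pathways was read from the same fit with lists of genes outside the set, whose counts stand beside the 2.91% of all genes that rose and the 2.19% that fell. Of 29 further genes of glycolysis, gluconeogenesis and lactate handling, 1 rose and 0 fell (median -0.05), a share near that of all genes. This was Pfkfb2, another fructose 2,6-bisphosphate enzyme, at 5.53, 6.19 and 5.39 CPM in WT and 17.3, 10.6, 15.6 and 16.8 CPM in ALAS1/2-KO (log2 difference 1.37, SE 0.18, adjusted p = 0.00702, limma). Of 17 further glycogen genes 1 rose and 0 fell (median 0.06): Pgm3, which works in amino sugar synthesis, from 9.16 CPM ± 0.282 (SD, n = 3) to 16.1 CPM ± 2.78 (SD, n = 4). Of 5 further genes of the pyruvate dehydrogenase complex 1 rose and 0 fell: Pdp2, a phosphatase that opposes the kinases, with a log2 difference of 0.64 (SE 0.14, adjusted p = 0.037, limma).

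The pentose phosphate pathway, which supplies NADPH, had 3 of 12 genes that rose and 0 that fell (median 0.13). G6pdx, its first enzyme, was at 5.58, 5.48 and 7.79 CPM in WT and at 15.2, 24.0, 20.1 and 14.9 CPM in ALAS1/2-KO. The groups were far apart (log2 difference 1.54, SE 0.20, adjusted p = 0.00699, limma), and the call was lost without WT replicate 2 (0.0523). Pgd, the other NADPH-making enzyme of the pathway, had a log2 difference of 0.55 and Shpk, sedoheptulokinase, one of 0.73. Of 10 genes of fructose and galactose use, 1 rose and 0 fell (median 0.01): Tkfc, which phosphorylates the glyceraldehyde made from fructose, from 222 CPM ± 25.3 (SD, n = 3) to 425 CPM ± 76.9 (SD, n = 4).

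Among 25 regulators of carbohydrate response, 4 rose and 0 fell (median 0.18). Mlxipl, which encodes ChREBP, was at 374, 350.2 and 375 CPM in WT and at 478, 533, 583 and 660.1 CPM in ALAS1/2-KO (log2 difference 0.61, SE 0.13, adjusted p = 0.0341, limma). Txnip, a known target of ChREBP, differed by 0.89, Creb3l3, a factor of the fasting response, by 0.69, and Insr, the insulin receptor, by 0.42 on the log2 scale. Thrsp, another gene known to respond to carbohydrate, ranged from 76.9 to 308 CPM in WT and from 322 to 514 CPM in ALAS1/2-KO and did not pass (adjusted p = 0.123, limma). It was picked after its values were seen. Of the regulators that did not pass, 4 were higher, Thrsp among them, and 1 lower at an unadjusted p under 0.05 (limma). Of the genes named from these lists Pfkfb2 kept its call without each single library. The other 10 lost theirs without at least 1 library, WT replicate 2 among them in each case, with adjusted p-values there from 0.0523 (G6pdx) to 0.201 (Pgd, limma). G6pdx passed in 6 of the 7 fits without a library, and Creb3l3, Txnip, Pgm3 and Tkfc in 3. Pdp2 and Pgd passed in 2, and Mlxipl, Insr and Shpk in 1.

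The plain E-box CACGTG, the core that ChREBP and many other factors of its class can bind, was searched in the same windows of 250 bases and reads alike on both strands. It was found in 5 of 33 genes of the set (15.2%), Khk, Ldha, Pcx, Ppp1r3c and Pdk2, against 6.86% of 27025 genes and 10.1% of the 9410 tested genes with a window. Of the 10 genes that rose and had a window, 2 held it, Khk and Pcx, and a difference in share was not tested. Of the 3 genes whose stretches follow, Pcx rose, and Ppp1r3c and Pdk2 did not pass after adjustment. The stretches are given 5′ to 3′ on each gene's strand with the core in capitals:
Pcx, chr19:4510222-4510249, plus strand: ccCACGTGaggctttcaagaaaagagag
Ppp1r3c, chr19:36736683-36736728, minus strand: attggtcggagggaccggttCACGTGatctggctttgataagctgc
Pdk2, chr11:95041472-95041517, minus strand: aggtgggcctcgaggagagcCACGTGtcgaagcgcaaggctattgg
These lie 248 to 243, 104 to 99 and 126 to 121 bases before the RefSeq starts (GRCm38). Pcx and Pdk2 each also have a RefSeq start further downstream, and the window before that start held no match. The cAMP response element TGACGTCA was present in Ldha alone, against 1.77% of genes and 2.93% of tested genes with a window.

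Several values carry a limit of counting. Exons of Slc2a2, Gpi1, Gapdh, Pklr and Pygl among the genes that rose overlap exons of another annotated gene, 1700112D23Rik, Gm26762, Iffo1, Hcn3 and F730035M05Rik in that order, and no source used here states how strand was handled. Processed copies of Gapdh, Tpi1, Pgk1, Pgam1, Eno1, Pkm and Ldha are known elsewhere in the genome, though they were not looked up here. The levels of these genes may depend on how reads with several matches were treated, which no source used here states either.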

How the data were processed

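RNA-seq of 3 WT and 4 ALAS1/2-KO hepatocyte libraries was analysed, grouped by their titles. Per the labels' protocols, libraries were made from Trizol-extracted total RNA with the TruSeq RNA kit. Per the submitters' processing notes, the authors used cutadapt and HISAT2 with the mouse build mm10. The counter, annotation, strand setting and versions were not given in the sources used here. The authors deposited log2 CPM values with a small prior for 12151 genes. The deposited log2 values, less a floor of 0.0676 CPM, were whole multiples of a step per library for 100% of values, within 0.01 reads, which gave the reads and depths. No listed gene was under 0.5 CPM in more than 4 libraries, and rarer genes were not analysed here. The step also showed a scaling by the authors: their library sizes over the listed reads were 0.801 to 1.00 in WT, and in ALAS1/2-KO 1.07 to 1.18.

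Genes of 1 CPM or more in 3 libraries or more (12105, each of the 35 among them) were tested on the deposited log2 values with limma 3.58.1 in R 4.3.3 (intensity trend, robust moderation, two-sided, Benjamini-Hochberg over all tested genes, threshold 0.05); differences are ALAS1/2-KO minus WT and understate changes of low genes because of the prior. Library-level values were compared by an exact permutation test over 35 regroupings. The procedure was tested on simulated data. Gene positions, exon lengths and overlaps came from GENCODE M21 of mm10, and promoter windows from RefSeq on GRCm38.p6.

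The 35 genes, the lists and the tests were chosen with earlier results of these data known. Every gene of the set is named; values in each library are given for those with an adjusted p under 0.05, and those with an unadjusted p under 0.05 and no overlap; other per-library values (Pkm, Pck1, G6pc, Slc37a4, Ppp1r3b) and genes outside the lists' called genes (Hk1, Hk3, Pygb, Thrsp) were chosen after their values were seen. Alternatives were 2 pseudocounts, 2 filters, 3 scalings, limma without trend, limma voom, leaving out each library in turn, and a replicate block. Omitting ALAS1/2-KO replicates 1 and 2 together and using a marker level as covariate were chosen after seeing the data. Results for some genes of the lists are not reported here.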

Additional observations from a re-analysis of the deposited data

Results flagged for a closer look

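The 35 genes were checked for a library far from the rest of the 4 ALAS1/2-KO libraries, by the gap to the nearest library over the range of the group against Dixon's 95% critical value. The check marked 2 genes (5.71%), where chance marks about 1 in 20. Phkg2 was at 21.6 CPM in ALAS1/2-KO replicate 3, above 19.0 to 19.3 CPM in the other 3 libraries of the group (gap over range 0.864). Ppp1r3c was at 17.8 CPM in ALAS1/2-KO replicate 2, below 24.6 to 25.9 CPM in the other 3 (gap over range 0.866).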

How the results depend on the processing

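The count of 11 genes that rose became 21 with CPM rescaled to listed reads, 6 with limma without trend and robust moderation, and 4 to 9 without 1 library; it was 8 to 11 in the remaining alternatives other than the replicate block. The count of 0 that fell became 1 (Ppp1r3c) with CPM rescaled to listed reads, without the 20 most abundant and mitochondrial genes, with quantile normalization and without WT replicate 3 (0 to 1 over the fits without a library). Whether same-numbered libraries belong together is not stated, and the correlations of their deviations (-0.03, 0.05 and 0.18) are too few to decide it. With a replicate block 0 of the 35 genes and 72 of all genes, in place of 617, were called. ALAS1/2-KO replicate 4 has no WT library of its number, so it adds nothing to the group difference in the block fit. Fewer samples or residual degrees of freedom remain in the block and the fits without a library. Slc2a2, Gpi1, Pklr and Pdk1 passed whichever of the 7 libraries was left out; the other 7 genes that rose did not. None of the 11 changed sign in 19 alternatives, whereas 12 of the other 24 did in at least 1. The 11 were called for differences large beside their errors in the same libraries, so this contrast follows from the selection. Pck2 and Gyg were not tested at 5 CPM in 3 libraries. Each gene had at least 73 reads in each library, and the number of libraries limits the precision.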
